A study of Mus musculus with 4 samples.

Results

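Lung endothelial cells that lacked Oct4 were compared with lung endothelial cells that kept it, by single-cell RNA sequencing. Oct4 (official symbol Pou5f1) is a transcription factor best known from pluripotent cells. Both groups came from female Apoe-deficient mice of strain C57/B6J that carried an eYFP tracer of the endothelial lineage and had eaten a Western diet for 5 weeks, so the lack of Apoe and the diet were shared by the controls. The wild-type library (EC-Oct4+/+) pooled cells of 2 mice and the knockout library (EC-Oct4Δ/Δ, deleted in endothelial cells) cells of 3 mice. The left lung lobe was digested with 1 µg/mL actinomycin D, which blocks new transcription, and eYFP+ cells were sorted with a gate set on littermates negative for Cdh5. An aortic pair of libraries with the same genotypes, diet and numbers of mice is used only for values set side by side.

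A cell entered the comparison with at least 500 UMIs (unique molecular identifiers, each counting 1 captured transcript), at most 15% of them mitochondrial, at least 2 of 8 endothelial markers detected (Pecam1, Cdh5, Egfl7, Cldn5, Kdr, Tie1, Emcn and Esam), no UMI of the leukocyte gene Ptprc, and fewer than 2 of the lymphatic genes Ccl21a, Mmrn1, Lyve1 and Reln. This kept 700 of 800 wild-type and 462 of 529 knockout barcodes, 1162 of the 3401 barcodes in all 4 libraries. The cells were selected on their UMI counts of these marker genes, and the comparison was chosen by its ratios of knockout to wild type, so every difference below is a description of 2 libraries. With 1 library per group no test was possible, no difference has a replicate check, and every interval is an exact 95% interval that covers counting error only.

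The kept cells summed to 1323320 UMIs in the wild-type and 923945 in the knockout library, with medians of 1630 and 1732 UMIs per cell, 2.95% and 2.94% mitochondrial UMIs, and 6 of the 8 markers detected in both. At the border of the marker rule, 18 wild-type and 12 knockout cells held exactly 2 markers, and 7 and 2 otherwise eligible barcodes were left out with 1. Both libraries expressed the 8 markers, as the rule asks. Their ratios of knockout to wild type lay between 0.935 for Tie1, an orphan receptor kinase of endothelium, and 1.11 for Cldn5, the tight junction claudin. The libraries shared 2 barcodes, 1 of them among kept cells.

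One kept knockout cell stood apart. It held 42860 UMIs, 4.64% of the knockout total, of which 28398 came from Scgb1a1, the secretoglobin of airway club cells, and it passed with 3 endothelial markers carrying 4 UMIs. The second highest share of UMIs from markers of other cell types was 0.623% in a knockout cell and the highest in a wild-type cell was 1.16%, against 69.2% in this cell. Because of such cells, the cell with most UMIs of a gene was left out of each library for that gene before levels were scaled to a common UMI total (CPM, counts per 1e+06 UMIs). Even so Scgb1a1 stood at 25.7 CPM in wild-type and 431 CPM in knockout cells, with a UMI in 4.0% and 53.3% of cells. It lay between 329 and 452 CPM in each of the 4 knockout clusters compared below, a like level in all of them. With every cell counted, the summed level of erythroid markers was 0.756 CPM in wild-type and 79.0 CPM in knockout cells. With the highest cell left out per gene it was 0 and 71.6 CPM. The part of free RNA from such cells in other differences was not tested, and counts without the Scgb1a1 cell are given beside the main ones.

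The targeted gene could not be followed by its transcript. Pou5f1 had a UMI in 1 of 700 wild-type and 1 of 462 knockout cells, and with the highest cell left out both libraries were at 0, where 3 counts would give 2.27 and 3.25 CPM. A tag at the 3′ end would not show the loss of an internal part of the gene in any case. Apoe transcripts were still counted, at 251 CPM in wild-type and 198 CPM in knockout cells, which likewise says nothing about an internal deletion.

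Most of the transcriptome was alike in the 2 libraries. Of 3182 genes whose 2 levels averaged 50 CPM or more on at least 30 UMIs, 3041 (95.6%) lay within 1.5-fold. The knockout was at least 1.5-fold higher for 68 genes (2.14%) and at least 1.5-fold lower for 73 genes (2.29%), and the interval of the ratio excluded 1 for all 141. It excluded 1.5 as well for 13 higher and 3 lower genes. With 4.43% of all genes past 1.5-fold in either direction, 1 gene past it in a list of 20 is near this background. At 2-fold, 11 genes were higher (0.346%) and 6 lower (0.189%). Without the Scgb1a1 cell the counts were 81 higher and 56 lower, so the share of higher genes among those past 1.5-fold was 59.1% in place of 48.2%, and the median log2 ratio of all genes was 0.01 in place of -0.04. At the border, Ppp1r11, a phosphatase inhibitor subunit, was 1.501-fold higher and Tcn2, a transporter of vitamin B12, 1.5-fold lower, while the nearest genes outside had ratios of 1.497 and 1/1.496.

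**Figure D1:**
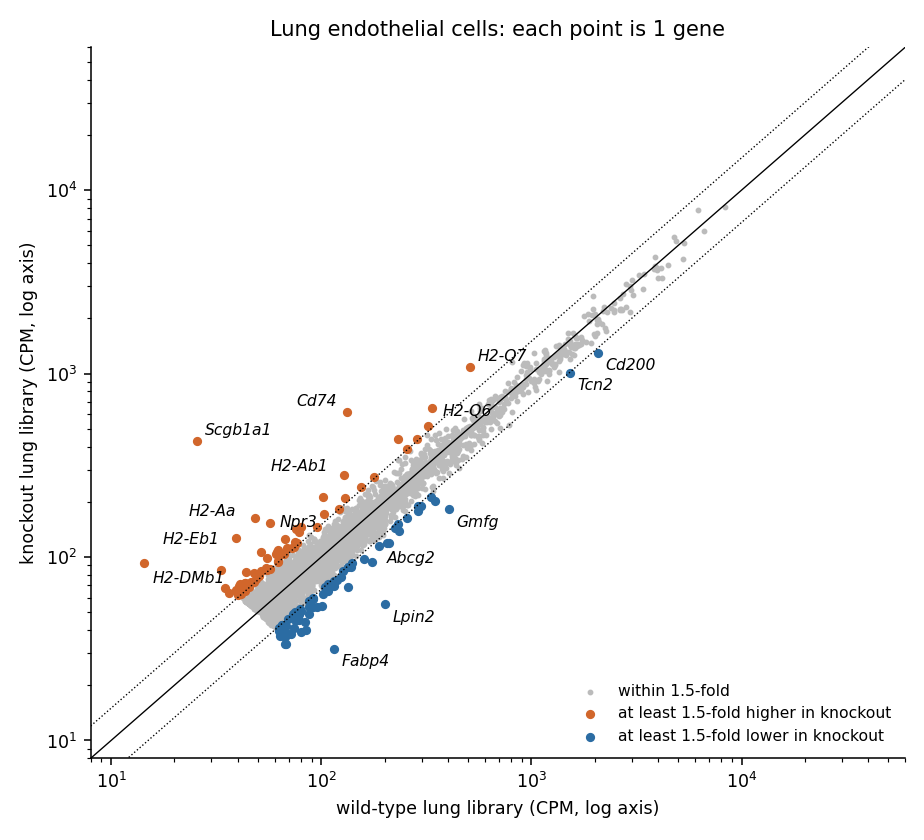
Level of each compared gene in wild-type (x axis) and knockout (y axis) lung endothelial cells, in CPM on log axes, with the highest cell of each library left out per gene. The solid line marks equal levels and the dotted lines 1.5-fold. Cd74 at 133 and 620 CPM and the H2 class II genes lie above the lines, and Lpin2 at 201 and 55.4 CPM lies below.

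With markers of other cell types such as Scgb1a1 left out of the ranking, the 4 genes with the highest lower bound of the ratio were Cd74, H2-DMb1, H2-Aa and H2-Eb1, all of MHC class II. Class II molecules present peptides taken up from outside the cell to CD4+ T cells. An alpha and a beta chain (H2-A and H2-E in the mouse) assemble on the invariant chain Cd74, and H2-DM later exchanges the last fragment of that chain for peptide. The class II transactivator Ciita switches the genes on through the RFX and NF-Y complexes bound at an upstream module that includes the Y box. Dendritic cells, macrophages and B cells are the usual carriers, and lung capillary endothelium is also known to carry them.

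The stretches before the start sites of 2 class II and 2 class I genes on chromosome 17 are shown because they hold a Y box and their genes were among the 12 ranked highest. They are RefSeq sequences of the GRCm38.p6 build, 250 bases that end at the base before the start, written 5′ to 3′ on the strand of the gene, with the Y box (CTGATTGG, or CCAATCAG on the other strand) in capitals. H2-Aa is at chr17:34287824-34288073 on the minus strand. H2-Eb1 is at chr17:34305617-34305866, H2-Q7 at chr17:35438905-35439154 and H2-Q6 at chr17:35424600-35424849, all on the plus strand.
H2-Aa: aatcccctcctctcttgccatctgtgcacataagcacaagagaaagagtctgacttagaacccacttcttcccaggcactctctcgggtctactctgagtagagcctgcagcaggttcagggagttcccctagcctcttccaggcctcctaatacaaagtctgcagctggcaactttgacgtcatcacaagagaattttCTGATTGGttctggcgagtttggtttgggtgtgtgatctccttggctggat
H2-Eb1: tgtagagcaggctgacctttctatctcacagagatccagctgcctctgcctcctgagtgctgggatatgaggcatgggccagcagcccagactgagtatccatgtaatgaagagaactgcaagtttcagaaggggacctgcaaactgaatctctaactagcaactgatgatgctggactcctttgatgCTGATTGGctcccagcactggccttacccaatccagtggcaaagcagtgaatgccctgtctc
H2-Q7: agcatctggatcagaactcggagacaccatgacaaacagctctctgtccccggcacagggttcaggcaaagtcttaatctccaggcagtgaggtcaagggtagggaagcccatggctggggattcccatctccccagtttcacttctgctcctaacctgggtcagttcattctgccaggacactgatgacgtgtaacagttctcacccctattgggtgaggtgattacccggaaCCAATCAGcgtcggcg
H2-Q6: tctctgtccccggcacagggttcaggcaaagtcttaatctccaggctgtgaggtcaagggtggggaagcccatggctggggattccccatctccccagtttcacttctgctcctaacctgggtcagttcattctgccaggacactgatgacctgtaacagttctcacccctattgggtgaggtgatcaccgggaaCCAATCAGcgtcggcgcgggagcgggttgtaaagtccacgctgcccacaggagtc
The match begins 51 bases before the start in H2-Aa, 62 in H2-Eb1, 16 in H2-Q7 and 55 in H2-Q6. In H2-Q7 and H2-Q6 it is CCAATCAG, on the other strand. Whether that match is the Y box of an upstream module was not tested. H2-DMb1 had no exact match in its window, and H2-Ab1 and Cd74 had no entry. Over windows that also took in the first 50 bases after the start, the Y box was found in 11 of 64 promoters (17.2%) of the higher genes, 5 of 80 (6.25%) of the lower genes, 5.41% of the 3289 promoters of all compared genes and 4.10% of all 32851 promoters. The promoters searched covered 50 of the 68 higher and 57 of the 73 lower genes. The higher genes with a box were Arl3, Glo1, H2-Aa, H2-Eb1, H2-Q6, H2-Q7, Hspa1a, Hspa1b, Mrps12, R3hdm1 and Wdr89. Among these, H2-Q6 and H2-Q7 are neighbours, as are Hspa1a and Hspa1b, so the promoters are not independent. The higher genes were picked by their ratios, and the difference between the shares was not tested. The octamer ATGCAAAT, bound by POU-family factors such as Oct4, was searched on both strands in the same windows. It was found in none of the 64 promoters of higher genes, in 2 of the 80 of lower genes (Lpcat1 and Ypel3), in 1.31% for all compared genes and in 1.74% of all promoters. A match of letters is a description, not a binding site.

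Cd74, the invariant chain, lies on chromosome 18 (mm10, 60803848 to 60812652). It stood at 133 CPM (95% interval 114 to 154) in wild-type and 620 CPM (570 to 673) in knockout cells, 4.67-fold higher (3.94 to 5.57). A UMI of Cd74 was found in 80 of 700 wild-type cells (11.4%) and 172 of 462 knockout cells (37.2%), and in 8.54% and 31.6% of the cells thinned to 1000 UMIs, where 126 and 108 shallower cells were left out. More cells were therefore positive, and the positive cells also held slightly more, with a median of 1.5 UMIs in wild-type and 2 in knockout cells. Cells with at least 5 Cd74 UMIs numbered 9 and 41. The single highest cells held 24 and 25 UMIs, so no single knockout cell carried the difference.

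The classical chains differed less than the invariant chain. H2-Aa, the alpha chain (chromosome 17, 34282744 to 34287823), was at 48.4 CPM in wild-type and 164 CPM in knockout cells, 3.38-fold higher (2.51 to 4.61). H2-Eb1, a beta chain of the other isotype (34305867 to 34316674), was at 39.4 and 127 CPM, 3.22-fold higher (2.31 to 4.56). H2-Ab1, the beta partner of H2-Aa (34257689 to 34269419), had the highest wild-type level of the 3 and the smallest ratio. It was at 129 and 281 CPM, 2.19-fold higher (1.80 to 2.67), and was found in 15.9% and 28.6% of cells.

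Both chains of the peptide exchanger H2-DM were low in wild-type cells. H2-DMb1 (34153072 to 34160230) rested on 19 wild-type and 85 knockout UMIs, 14.4 and 92.3 CPM, and had the largest ratio of the group at 6.40 (3.86 to 11.2). Part of its 3′ sequence (21.1%) also occurs in other genes. H2-DMa, at 12.9 and 55.5 CPM, 4.31-fold higher (2.45 to 7.96), fell under the limit of 50 CPM and was not among the genes compared. The regulators were within 1.5-fold in the summed counts. Ciita was at 7.56 and 9.77 CPM on 10 and 9 UMIs, a ratio of 1.29 with an interval from 0.464 to 3.54. Its log2 ratio of 0.37 was 1.18 with the mean of per-cell CPM, 0.70 in cells thinned to 1000 UMIs and 0.66 with clusters weighted alike, all past 1.5-fold, so these counts do not place it. Rfxap, a subunit of the RFX complex, had a ratio of 0.944 (0.517 to 1.69) and Rfxank, another, 0.890 (0.409 to 1.86). The lowest log2 ratio of Rfxank among the alternatives was -0.62, also past 1.5-fold.

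Of the 16 genes on the class II list, 15 were in the files and 9 held at least 10 UMIs over both libraries. Of these 9, the 6 genes of chains and chaperones above were at least 1.5-fold higher in the knockout. The 3 regulators had ratios within 1.5-fold, but their intervals reached past 1.5-fold in both directions, so a difference of that size is not excluded. The 5 listed genes that entered the comparison of all genes were all higher, with a median log2 ratio of 1.76, against -0.04 for all genes. H2-DMb1, H2-Aa and H2-Eb1 were under 50 CPM in the wild type and entered through their knockout level, so that count was partly set by the filter. Per cell, at least 2 of these 5 genes were detected together in 77 wild-type cells (11%, 8.78 to 13.6) and in 146 knockout cells (31.6%, 27.4 to 36.1).

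Leukocytes carry class II in large amounts, and their markers were low in both libraries. With every cell counted, as for all marker sums in this paragraph, 15 pan-leukocyte markers summed to 15.1 CPM in wild-type and 3.25 CPM in knockout cells. In the knockout cells 14 of the 15 were at 0, and Laptm5, Cd79a, Cd79b, Igkc, Cd3e, Cd3g and Nkg7 were at 0 in both libraries. Ptprc, also among the 15, was at 0 because the cell rule asks for it. Dendritic cell markers summed to 31.7 and 26.0 CPM (Flt3, Ccr7 and Cd209a at 0 in both), macrophage and monocyte markers to 33.2 and 31.4 CPM (Csf1r, Adgre1, C1qa, Ccr2 and Marco at 0 in both). B cell markers summed to 32.5 and 39.0 CPM, with 7 of 8 at 0 in both. Among the 691 wild-type and 459 knockout cells without any pan-leukocyte UMI, Cd74 stood at 151 and 649 CPM with every cell counted. The 12 cells that held one carried 2 wild-type and 1 knockout UMIs of Cd74, so leaving them out could hardly change the difference. A leukocyte source of these transcripts was not tested.

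To see which endothelial cells held these transcripts, the kept cells were clustered without the genes past 1.5-fold. The clusters were named from marker lists. Leading genes and the share of cells with a marker were taken for naming from scaled log values cut to whole numbers, not from UMIs. Cluster 0 (250 wild-type and 165 knockout cells) was general capillary-like, with the apelin receptor gene Aplnr and the receptor kinase gene Kit among its leading genes. Cluster 1 (249 and 151 cells) had 14 of 16 general capillary markers in at least 25% of its cells but was led by Atf3, Hbegf and Fosb, genes of the early stress response, and by no capillary marker. Cluster 2 (131 and 94 cells) was aerocyte-like, the gas exchange capillary type, led by Ednrb, Fibin and Tbx2. Cluster 3 (45 and 35 cells) was venous and large vessel-like, led by Slc6a2, Bst1 and Vcam1, and cluster 4 (25 and 17 cells) was arterial-like and too small to compare.

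The make-up of the libraries was close. Cluster 0 held 35.7% of cells in both, cluster 1 held 35.6% and 32.7%, cluster 2 held 18.7% and 20.3%, cluster 3 held 6.43% and 7.58%, and cluster 4 held 3.57% and 3.68%. The exact intervals of each pair of shares overlapped, but they count cells of 1 library per group. Genes past 1.5-fold were left out of the clustering, so the closeness of the shares may be partly set by the method. Names rebuilt from markers can differ from those of the submitters.

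Class II transcripts were higher in the knockout in general capillary-like and venous-like cells and were at or near 0 in aerocyte-like cells of both libraries. Cd74 stood at 130 CPM in wild-type and 720 CPM in knockout cells of cluster 0, at 211 and 729 CPM in cluster 1, and at 93.9 and 1258 CPM in cluster 3. In shares of cells with a UMI, cluster 0 had 10.4% and 47.9%, cluster 1 had 18.5% and 42.4%, and cluster 3 had 11.1% and 77.1%. The venous-like cells were deeper in the knockout, with median UMIs of 2545 against 1680 in the wild type. In aerocyte-like cells Cd74 had a UMI in 2 of 131 wild-type cells (1.53%) and 1 of 94 knockout cells (1.06%), at median depths of 2324 and 1926 UMIs, and the 2 wild-type UMIs lay under the limit of 3 counts. Among the arterial-like cells 1 of 25 wild-type and 1 of 17 knockout cells were positive. The intervals of these shares reach 20.4% and 28.7%, so the cluster is too small to place them.

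The other class II genes followed the same distribution. H2-Ab1 stood at 196 and 324 CPM in cluster 0, 184 and 375 CPM in cluster 1, 6.10 and 0 CPM in cluster 2 and 31.8 and 419 CPM in cluster 3. H2-Aa was at 46.1 and 214 CPM in cluster 0 and at 35.2 and 306 CPM in cluster 3. The wild-type levels in cluster 3 rest on few cells, with a UMI of H2-Ab1 in 4 of 45 cells and of H2-Aa in 3. In the knockout library Scgb1a1 was at 440 CPM in cluster 0 and 400 CPM in the aerocyte-like cluster.

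**Figure D2:**
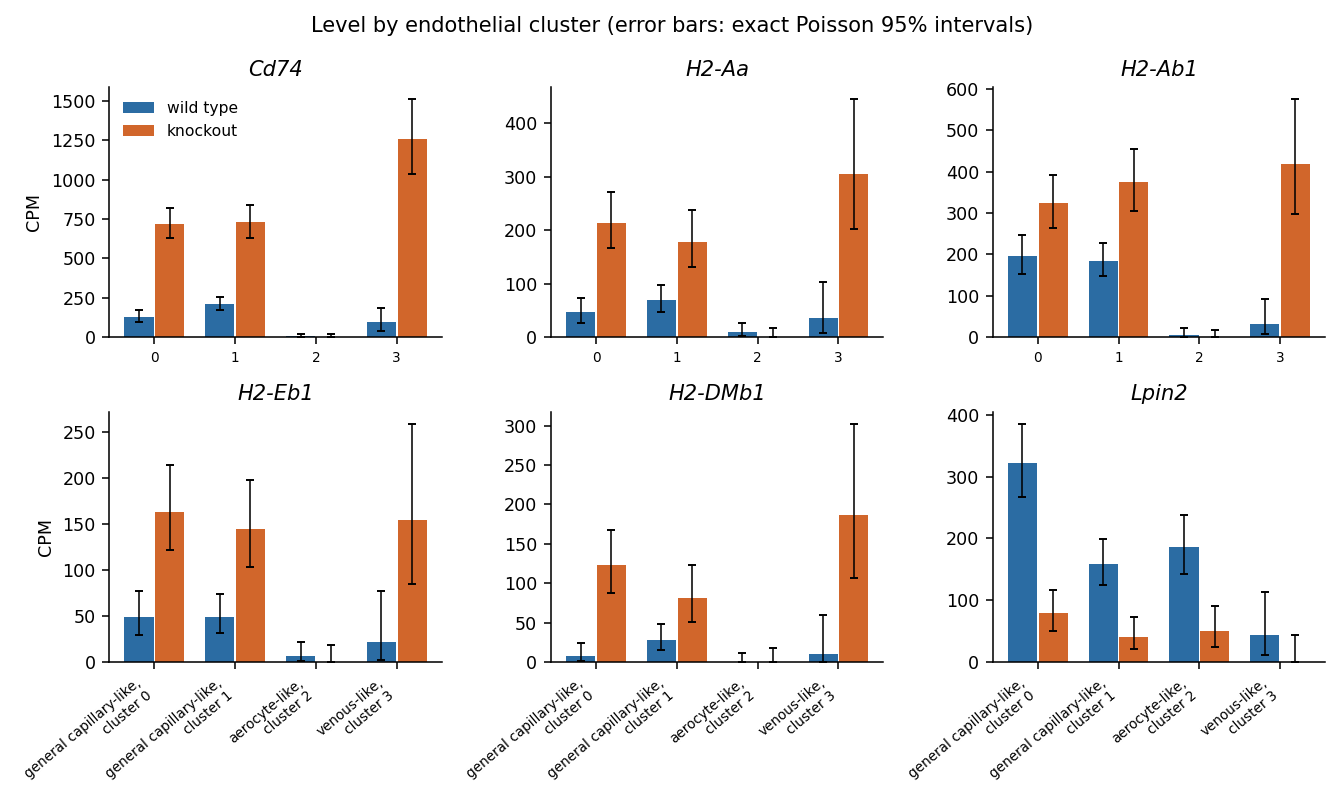
CPM of 5 class II genes and of Lpin2 in wild-type (blue) and knockout (orange) cells of the 4 endothelial clusters, with the highest cell left out per gene and error bars giving exact Poisson 95% intervals (counting error only). Cd74 reaches 1258 CPM in knockout cells of cluster 3 and is at 0 CPM in those of cluster 2, and Lpin2 is lower in the knockout in every cluster.

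MHC class I, which presents peptides made inside the cell to CD8+ T cells, differed in fewer genes. Of 21 members compared, 2 were higher (H2-Q7 and H2-Q6), 1 was lower (H2-M3) and 18 were within 1.5-fold, with a median log2 ratio of 0.14. Of all genes 2.14% were higher and 2.29% lower. H2-Q7, a nonclassical heavy chain of the Qa-2 family (chromosome 17, 35439155 to 35443773), stood at 511 CPM in wild-type and 1083 CPM in knockout cells, 2.12-fold higher (1.92 to 2.34). Unlike class II it was higher in all 4 clusters, with 257 and 761 CPM in the aerocyte-like cells. Its neighbour H2-Q6 was at 338 and 648 CPM, 1.92-fold higher (1.69 to 2.17), and 49.4% of its 3′ sequence occurs in other genes, so its counts are uncertain. H2-M3, which presents N-formylated peptides, was at 84.6 and 40.2 CPM, 2.10-fold lower (1.44 to 3.14), and lower in all 4 clusters.

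The classical heavy chains and the shared light chain stayed within 1.5-fold. H2-K1 had a ratio of 1.35 (1.27 to 1.42), H2-D1 of 1.16 (1.12 to 1.21) and B2m, the light chain, of 1.25 (1.21 to 1.29), and each of these 3 was higher in all 4 clusters. The peptide transporter genes Tap1 and Tap2 had ratios of 0.854 (0.662 to 1.10) and 1.01 (0.827 to 1.23). Of 19 interferon response genes none was higher and 1 was lower, near the 4.43% of all genes past 1.5-fold, with a median log2 ratio of 0.07. Irf7, a master factor of type I interferon, was at 68.1 and 42.3 CPM, 1.61-fold lower (1.09 to 2.41). Oasl2, an antiviral gene, was just outside the threshold with a ratio of 1.497 (1.11 to 2.02) and past it without the Scgb1a1 cell.

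Several of these genes lie near Pou5f1 itself, which is on chromosome 17 (35506018 to 35510772) within the MHC. Of the 12 genes ranked highest, 8 are on chromosome 17. Within 2 Mb of Pou5f1, 50 genes were compared, and 9 were higher and 1 lower, 20% against 4.18% of genes elsewhere (4.43% overall). Within 5 Mb the count was 11 of 60 (18.3%) against 4.16%, with Glo1, which detoxifies methylglyoxal, added. It was the same 11 of 60 without the Scgb1a1 cell. The aortic pair gave 7 of 47 (14.9%) within 5 Mb against 6.15% elsewhere, of which Glo1, H2-Q6 and H2-Q7 were shared with the lung. H2-DMb1, H2-Aa and H2-Eb1, at 14.4, 48.4 and 39.4 CPM in wild-type lung cells, entered through their knockout level. The lung shares in both windows were therefore partly set by the limit of 50 CPM. These windows were chosen after the values had been seen, and for the MHC genes position and function cannot be told apart.

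**Figure D3:**
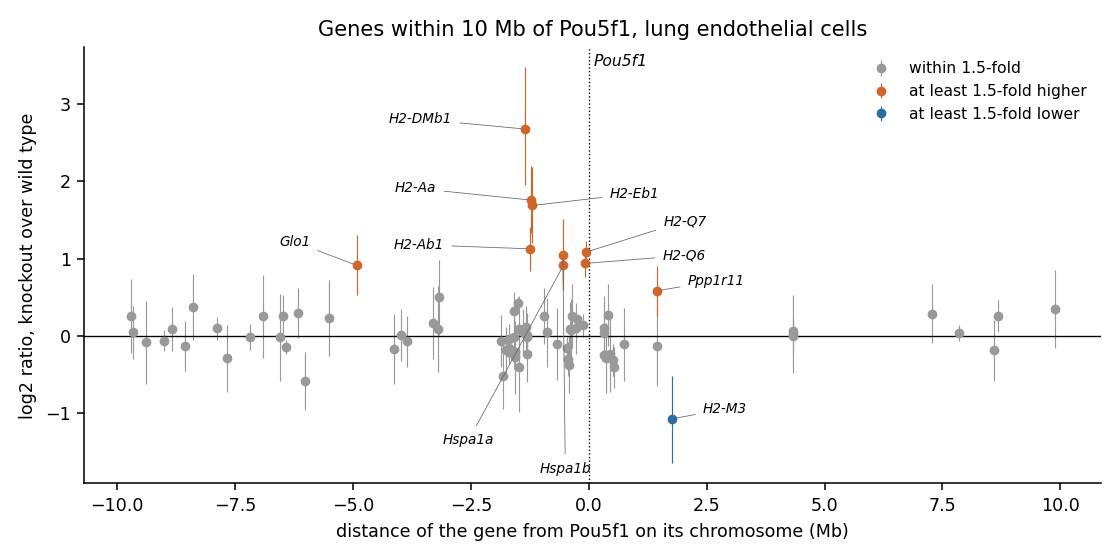
Log2 ratio of knockout over wild type (y axis) for compared genes within 10 Mb of Pou5f1, by distance in Mb (x axis), with exact 95% intervals of the ratio. Between 0 and 2 Mb to the left lie H2-DMb1, H2-Aa, H2-Eb1, H2-Ab1, Hspa1a, Hspa1b, H2-Q6 and H2-Q7, all above 1.5-fold, among neighbours near 0.

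Heat shock genes included a pair in the same region. Of 12 heat shock genes compared, 3 were higher, where 2.14% of all genes were, and none was lower, with a median log2 ratio of 0.20. Hspa1a and Hspa1b are adjacent copies that encode the inducible chaperone HSP70. Hspa1a was at 233 CPM in wild-type and 439 CPM in knockout cells, 1.89-fold higher (1.62 to 2.19), and Hspa1b at 51.5 and 107 CPM, 2.07-fold higher (1.51 to 2.87). Dnaja1, a co-chaperone encoded on chromosome 4, was at 286 and 440 CPM, 1.54-fold higher (1.33 to 1.78). All 3 were higher in each of the 4 clusters. Immediate early genes, the other common mark of cell handling, lay on the low side in the knockout, with none of 20 past 1.5-fold and a median log2 ratio of -0.21. Among 14 genes of the unfolded protein response none was past 1.5-fold, and the median was 0.21.

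Apart from Cd74 and the genes within the MHC, the highest ranked genes were Npr3, Serpina3g and Pde4b. Npr3, the clearance receptor that removes natriuretic peptides, was at 57.1 and 154 CPM, 2.69-fold higher (2.02 to 3.61). It had the cell distribution of class II in part, with 12.4% and 32.7% of cells positive in cluster 0 and no UMI in aerocyte-like cells of either library. Zero of 131 and of 94 cells allows shares of cells with a UMI up to 2.78% and 3.85%. Serpina3g, a protease inhibitor of the serpin family, was at 33.3 and 84.8 CPM, 2.55-fold higher (1.74 to 3.77), in 5.0% and 8.66% of cells. Pde4b, which breaks down cyclic AMP, was at 102 and 212 CPM, 2.07-fold higher (1.65 to 2.59), and higher in all 4 clusters.

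Lpin2 was the gene with the lowest upper bound of its ratio. It encodes a phosphatidate phosphatase, which makes diacylglycerol for triglyceride and phospholipid synthesis, and lies on chromosome 17 (71182560 to 71249817), far from the MHC. It stood at 201 CPM (178 to 227) in wild-type and 55.4 CPM (41.3 to 72.9) in knockout cells, 3.63-fold lower (2.68 to 5.00), with a UMI in 27.9% and 10.4% of cells. The direction was shared by all 4 clusters. It went from 322 to 78.5 CPM in cluster 0, from 159 to 40.8 CPM in cluster 1, from 186 to 49.6 CPM in the aerocyte-like cells and from 44.0 to 0 CPM in the venous-like cells. The venous-like values rest on few cells. Lpin2 had a UMI in 5 of 45 wild-type cells there and in 1 of 35 knockout cells, and that 1 cell was the one left out.

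Apart from Fabp4, the other genes of lipid handling compared differed less than Lpin2. Among 11 genes of glycerolipid synthesis and breakdown, 2 were lower, where 2.29% of all genes were, and none was higher, with a median log2 ratio of -0.12. The other lower member was Pnpla2, the adipose triglyceride lipase, at 289 and 189 CPM, 1.53-fold lower (1.28 to 1.85), a log2 ratio of -0.62, which was -0.46 with clusters weighted alike. Without the Scgb1a1 cell Pnpla2 was 1.47-fold lower, and Lpin2 was the 1 gene past 1.5-fold of 10. Among 15 genes of fatty acid uptake and oxidation 1 was lower, Fabp4, with a median of -0.11, while Cd36, the fatty acid translocase, had a ratio of 0.942 (0.891 to 0.996) and Gpihbp1, which anchors lipoprotein lipase to capillaries, 0.945 (0.883 to 1.01).

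Fabp4, a fatty acid binding protein, was at 115 and 31.6 CPM, 3.64-fold lower (2.44 to 5.63), but rested on 21 wild-type and 11 knockout cells (3.0% and 2.38%). Its UMIs were nearly all in the venous-like cluster, at 1519 and 295 CPM there, so its value depends on few cells. Of 7 genes of cholesterol handling 1 was lower, Mylip, the ligase that marks the LDL receptor for breakdown, at 211 and 120 CPM, 1.76-fold lower (1.41 to 2.21). The median of that list was -0.25, and 2.29% of all genes were lower. Further genes of phospholipid remodelling and lysophospholipids were also past 1.5-fold and are named after their values were seen. Lpcat1, which builds surfactant-type phosphatidylcholine in other lung cells, was 1.83-fold lower (1.23 to 2.79), Lpcat3 1.65-fold lower (1.23 to 2.25) and Enpp2, the secreted enzyme autotaxin, 1.85-fold lower (1.33 to 2.62).

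Abcg2, a transporter that exports heme precursors and drugs, was lower in the knockout at 189 and 115 CPM, 1.64-fold (1.30 to 2.08), with a UMI in 25.9% and 18.8% of cells. The clusters did not share the direction. Abcg2 was at 264 and 98.1 CPM in cluster 0, 176 and 112 CPM in cluster 1 and 374 and 189 CPM in the venous-like cells, but at 48.8 and 80.0 CPM in the aerocyte-like cells. Of the 7 genes of heme and iron handling compared, Hebp1, a heme binding protein, was the 1 that was higher, at 67.6 and 125 CPM, 1.85-fold (1.39 to 2.47), and it was higher in all 4 clusters. Among all genes 2.14% were higher and 2.29% lower. Hmox1, which degrades heme, was at 8.34 and 6.81 CPM, too low to compare.

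Among the lower genes Cd200, Tcn2 and Gmfg had the highest wild-type levels. Cd200, which restrains myeloid cells through their CD200 receptor, was at 2075 CPM in wild-type and 1301 CPM in knockout cells, 1.59-fold lower (1.49 to 1.71), and was lower in all 4 clusters. Tcn2 was at 1519 and 1013 CPM and was lower in 3 of 4 clusters, the venous-like cells being the exception at 436 and 474 CPM. It was 1.43-fold lower without the Scgb1a1 cell. Gmfg, which debranches actin filaments, was at 405 and 182 CPM, 2.23-fold lower (1.87 to 2.67), found in 43.7% and 24% of cells, and lower in all 4 clusters. Gmfg was the 1 member past 1.5-fold of 31 genes of the actin cytoskeleton, where 4.43% of all genes were. The median log2 ratio of that list was 0.00.

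The remaining genes ranked lowest are of mixed function. They were Ccdc28b, a protein of the cilium, 1.97-fold lower (1.47 to 2.67), Ppil2, a prolyl isomerase, 2.05-fold lower (1.39 to 3.08), and Hmgb2, a chromatin protein, 1.73-fold lower (1.38 to 2.18). Ivns1abp was 1.85-fold lower (1.44 to 2.40), and Ypel3 1.71-fold lower (1.44 to 2.04). Of the 12 genes ranked lowest 8 were lower in all 4 clusters, and of the 12 ranked highest 6 were higher in all 4. The clusters are parts of the same 2 libraries that ranked these genes. A direction shared by clusters is therefore partly set by the ranking and is no independent check.

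Lists of vessel types and endothelial pathways held few genes past 1.5-fold, as did the compared genes as a whole (4.43%). None was past it of 15 aerocyte, 12 arterial, 15 junction, 11 caveolar, 13 BMP, 8 Notch and 14 flow-responsive genes. None of 19 endothelial identity genes was either, but that list holds the 8 markers by which cells were selected, so its levels were partly set by the rule. Among the flow-responsive genes Klf2, the shear-induced factor, had a ratio of 0.953 (0.906 to 1.00) and Klf4, its relative, 1.22 (1.12 to 1.32). Thbd, the anticoagulant thrombomodulin, was nearest to the threshold, at 806 and 1162 CPM with a ratio of 1.44 (1.32 to 1.57), higher in all 4 clusters and past 1.5-fold without the Scgb1a1 cell. Aplnr was the 1 of 15 general capillary genes past the threshold, at 118 and 74.9 CPM, 1.58-fold lower (1.18 to 2.13). None of 73 nuclear genes of oxidative phosphorylation and none of 10 glycolytic genes was past 1.5-fold, with medians of -0.06 and 0.01. Without the Scgb1a1 cell 1 of the 73 was, Ndufv1 of complex I, 1.56-fold lower.

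Among haemostasis genes, Tfpi, which blocks the tissue factor pathway, was at 80.3 and 51.1 CPM, 1.57-fold lower (1.10 to 2.27), and 1.498-fold without the Scgb1a1 cell. In 10 venous and large vessel genes 1 was higher, Slc6a2, the noradrenaline transporter, 1.74-fold (1.28 to 2.36). The venous-like cluster, which held nearly all of it, was at 782 and 1000 CPM, and the log2 ratio of 0.80 was 0.36 with clusters weighted alike. Ackr3, a scavenger of the chemokine CXCL12, was 1.53-fold higher (1.19 to 1.96), the 1 of 12 adhesion and chemokine genes past the threshold, and was highest in the same cluster, at 436 and 849 CPM. Its log2 ratio of 0.61 fell under 1.5-fold in 5 alternatives, to 0.20 with the mean of per-cell CPM and 0.23 in thinned cells. Ccnd1, the G1 cyclin, was at 55.3 and 98.7 CPM, 1.79-fold higher (1.29 to 2.47), and was the 1 of 11 cell cycle genes past the threshold. Over all genes 4.43% were past 1.5-fold in either direction and 2.14% were higher.

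**Figure D4:**
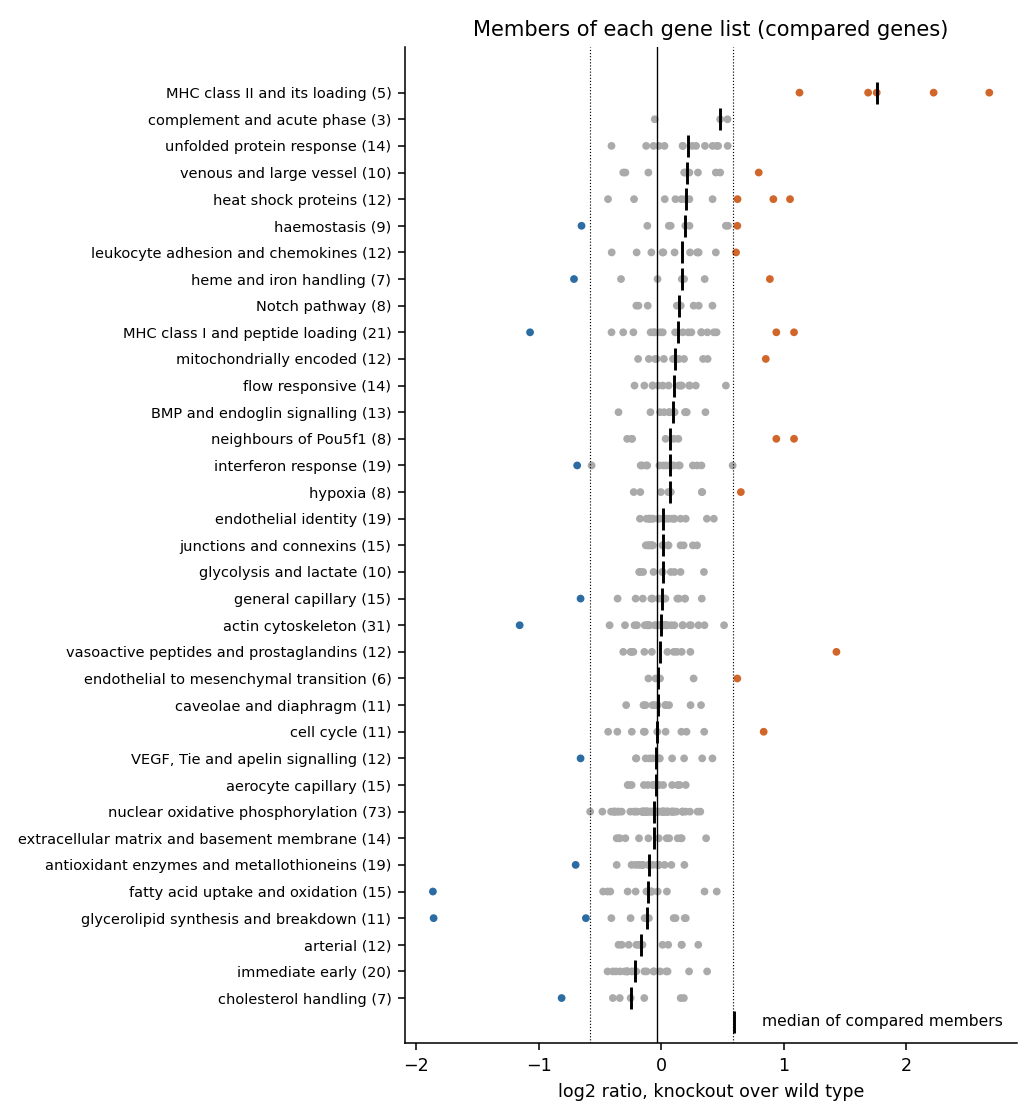
Log2 ratio of knockout over wild type for each compared member of the gene lists (number compared in brackets), with orange and blue points at least 1.5-fold higher and lower, a black bar at the median of the list, dotted lines at 1.5-fold and a solid line at the median of all genes. The class II list, with a median of 1.76, is the list whose compared members are all past 1.5-fold, and the other medians lie between -0.25 and 0.48.

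In the aortic pair, analysed with the same cell rule (350 wild-type and 1372 knockout cells), 122 of 2892 genes were higher (4.22%) and 60 lower (2.07%), 6.29% together. Of the 12 genes ranked highest in the lung, 5 were deep enough to compare there. Cd74 was at 14 and 277 CPM, 19.8-fold higher (11.3 to 38.5), H2-Q7 was 3.45-fold higher (2.80 to 4.28) and H2-Q6 3.02-fold higher (2.47 to 3.73). Pde4b, at 62.2 and 56.0 CPM, and Hspa1a, at 185 and 206 CPM, were within 1.5-fold. The other class II chains were under the limit of 50 CPM in the aorta, with H2-Aa at 2.33 and 56.4 CPM and H2-Ab1 at 9.31 and 61.3 CPM. Of the 12 ranked lowest in the lung 6 could be compared and none was past 1.5-fold, Cd200 having an aortic ratio of 1.11 (1.04 to 1.18). Lpin2 could not, at 0 CPM in wild-type and 4.60 CPM in knockout aortic cells, and Abcg2 was at 206 and 149 CPM, a ratio of 0.722.

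Over the 2422 genes compared in both tissues, 36 were higher in the lung knockout, and 6 of these were also higher in the aorta (16.7% of the lung genes and 7.14% of the 84 aortic ones): Cd74, H2-Q6, H2-Q7, Glo1, Emp1 and Tgm2. Of the same 36, 4 were lower in the aorta (Nme2, Rpl10-ps3, Wdr89 and mt-Atp8), and 13 had an aortic ratio below 1, as did 962 of all 2422. Of 38 lower in the lung, 4 were also lower in the aorta (10.5% of the lung genes and 8.51% of the 47 aortic ones): Cirbp, Hotairm1, Pnpla2 and Sult1a1. Of all 2422 genes compared in both tissues, 84 were higher and 47 lower in the aorta, which is the background for these counts. Hotairm1 and Pnpla2 were within 1.5-fold in the lung without the Scgb1a1 cell. Glo1 had nearly the same levels in both tissues, 75.9 and 143 CPM in the lung and 80.8 and 145 CPM in the aorta. Emp1, a tetraspan membrane protein, was at 322 and 519 CPM in the lung and 365 and 582 CPM in the aorta. The tissues came from mice of the same groups, so the 2 comparisons are not independent, and the difference between tissues was not tested.

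**Figure D5:**
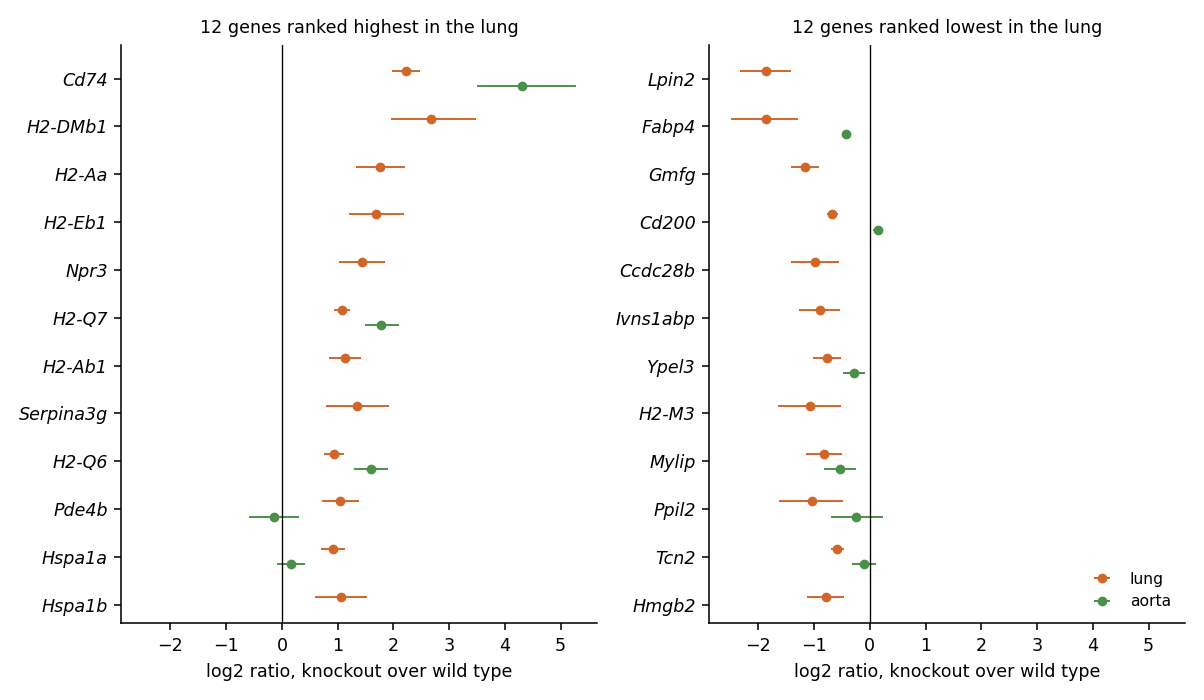
Log2 ratio of knockout over wild type in lung (orange) and aorta (green) for the 12 genes ranked highest (left) and lowest (right) in the lung, with exact 95% intervals. Genes without a green point were not compared in the aorta. Cd74, H2-Q7 and H2-Q6 are above 0 in both tissues, and Cd200 is below 0 in the lung and above 0 in the aorta.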

How the data were processed

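Single-cell RNA was measured in 4 droplet libraries, of which the 2 lung libraries are the subject. The authors deposited UMI counts as whole numbers for each gene and barcode. Cell Ranger and the mm10 build are named in the submitters' processing notes, and the version and annotation are not given in the sources used. Lung rows carry Ensembl identifiers, of which 31011 of 31053 matched GENCODE M21 symbols and 42 did not. Rows sharing a symbol were summed (37 rows). Coordinates are those of GENCODE M21, 1-based, for whole genes.

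Kept cells were summed per library, without the highest cell per gene, and divided by the UMI total (CPM). Summed levels of markers of other cell types counted every cell unless stated. Intervals are exact Poisson (CPM), conditional (ratios) and Clopper-Pearson (shares). The ratio calculation was tested on simulated data. Doublets were not removed in the main values. Scrublet marked 6 barcodes (0.768%) in the wild-type and 6 (1.16%) in the knockout lung, 5 of each among kept cells, and values without them are an alternative. No correction for free RNA was made. Clusters came from Leiden at resolution 0.5 on 2000 variable genes, 20 principal components and 15 neighbours (scanpy 1.11.5, leidenalg 0.10.2, Python 3.11.15), and those with at least 20 cells in each library were compared. Sequence shared at the 3′ end was measured over 50-mers of the last 300 bases of GENCODE M21 transcripts, as the percent also present in another gene's transcripts.

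Named genes are the 12 highest and 12 lowest by the interval bound nearest to 1 (without mitochondrial, ribosomal, haemoglobin and unnamed genes and markers of other cell types), class II genes with at least 10 UMIs, up to 2 members at each end of the other lists, and some genes of interest fixed with them. Emp1, Tgm2, Glo1, Cirbp, Hotairm1 and Sult1a1, and some list members, were named after their values were seen. Members and lists were chosen with earlier results of these data known. Some genes that the rule picks are left out of the text.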

Additional observations from a re-analysis of the deposited data

Results flagged for a closer look

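In the knockout, 4 genes were past 1.5-fold upward in the lung and past it downward in the aorta, and the difference between the tissues was not tested. Nme2, a nucleoside diphosphate kinase, had a log2 ratio of 0.81 in the lung and was 2.59-fold lower in the aorta, but 98.0% of its 3′ sequence occurs in other genes. Rpl10-ps3, a ribosomal pseudogene, had a log2 ratio of 0.77 in the lung and was 1.85-fold lower in the aorta, with 88.8% shared. Wdr89 had a log2 ratio of 0.61 in the lung and was 1.504-fold lower in the aorta. Without the Scgb1a1 cell its lung ratio was 1.48. The mitochondrial gene mt-Atp8 had a log2 ratio of 0.85 in the lung, where it was at 80.4 and 145 CPM, and was 2.12-fold lower in the aorta, at 234 and 110 CPM.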

How the results depend on the processing

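No paired analysis was possible because each group is 1 library, and for the same reason no replicate could be left out. Of the 154 named genes under 15 alternatives, 2250 of 2310 log2 ratios stayed within the counting interval and 60 moved outside it. Some of those that moved also changed sign. Without the aerocyte-like cluster Fibin went from -0.27 to 2.88 and Igfbp7 from -0.27 to 0.36. Gpx1 went from 0.19 to -0.23 in thinned cells, and Ccn1 from -0.14 to 0.18 with the mean of per-cell CPM. Among the 24 ranked genes the 4 that moved did so in cells thinned to 1000 UMIs (Ccdc28b, Fabp4, Pde4b and Ppil2). Tcn2, at the border, was under 1.5-fold in 11 alternatives and Ccdc28b in 1, and the other 22 ranked genes were past it in all 15. Cd74 lay between 2.07 and 2.37 and Lpin2 between -2.06 and -1.76 under these alternatives. The counts of 68 higher and 73 lower genes moved by more than 1.5 times in 5 settings: 125 higher with the mean of per-cell CPM, 208 and 160 with thinned cells, 406 and 523 without a CPM minimum, 21 and 24 at a minimum of 100 CPM, and 11 and 6 at 2-fold (0.346% and 0.189%). The split also shifted with all barcodes as deposited (52 and 99) and after scaling the median to 0 (77 and 57). The alternatives without the Scgb1a1 cell, without shared barcodes (67 and 72) and without the aerocyte-like cluster (82 and 94) were chosen after seeing the data. Depth limits low genes such as Ciita and Pou5f1, for which no difference was detectable. Among list members, Irf7 (-0.53, clusters weighted alike), Aplnr (-0.54, thinned cells) and Tfpi (-0.51, every barcode as deposited) also came under 1.5-fold.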
